A study of Mus musculus with 6 samples.

Results

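The nuclear genes of oxidative phosphorylation were followed through the cell classes of the mouse hippocampus and through treatment with an antisense oligonucleotide (ASO). They were chosen by name: 92 of the 28324 genes in the table began with Ndufa, Ndufb, Ndufs, Ndufv, Uqcr, Cox4 to Cox8, Atp5 or Sdha to Sdhd, and 91 of the 92 had at least 1 count. By role, 34 encode subunits of complex I, 4 of complex II, 8 of complex III, 20 of complex IV and 15 of complex V, and 11 are assembly or accessory factors with the same name stems. Ndufa4 and Ndufa4l2 were placed with complex IV, where the Ndufa4 protein is known to reside. The complex I and III genes Ndufc1, Ndufc2 and Cyc1 and the electron carrier Cycs fall outside the name rule and were read as a separate list.

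Oxidative phosphorylation makes most of the ATP of brain tissue. Complexes I and II pass electrons to complex III and then to complex IV, which reduces oxygen, and complex V (ATP synthase) uses the resulting proton gradient. Most subunits are encoded in the nucleus and a small set in the mitochondrial genome, so both genomes must supply parts for complexes I, III, IV and V. Complex II is wholly nuclear. Several complex IV subunits exist as paralogues with known tissue preferences, such as the muscle forms Cox6a2, Cox7a1 and Cox8b, the lung and oxygen-sensing form Cox4i2 and the testis form Cox6b2.

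Drop-Seq, in which each droplet pairs a cell with a barcoded bead and transcript 3' ends are counted by unique molecular identifier (UMI), was run on the hippocampi of 6 mice at 10 weeks of age. The 3 ASO mice had received an antisense oligonucleotide and the 3 PBS mice phosphate buffered saline. All 6 mice, the PBS controls included, carried the APP/PS1 transgenes of B6.Cg-Tg(APPswe,PSEN1dE9)85Dbo/Mmjax (a mutant human amyloid precursor protein and a mutant presenilin), and neither mice without the transgenes nor a control oligonucleotide were analysed here. The title of the series speaks of lowering IDOL, a ubiquitin ligase whose gene is Mylip. Mylip stood at 38.7, 30.2 and 33.9 CPM (UMIs scaled to an equal total) in the ASO mice and at 60.2, 70.0 and 74.8 CPM in the PBS mice, with no overlap.

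After doublets were removed, 12616 cells in 17 classes named by the authors remained. The ASO mice gave 1751 to 2822 cells and 2005768 to 3150332 UMIs each, and the PBS mice 1821 to 2110 cells and 2127919 to 2433090 UMIs. The median cell had 1027 to 1096 UMIs, and no cell in the table exceeded 1999. In 14 of 14 classes with a marker list, that list was at its highest in its own class. In 10 classes every mouse had at least 20 cells, and these are called the 10 tested classes. Nothing in the sources used here says how the authors assigned the classes. Where class names rest on expression in the same cells, adjusted p-values between classes are no independent test of the difference. Libraries were also ranked by mt-Rnr2 counts over mt-Cytb counts, a ratio whose cause was not tested. It was 4.49 in ASO mouse 2 and 7.16 in PBS mouse 2, 10.9 in ASO mouse 1 and 12.9 in PBS mouse 1, and 15.9 in ASO mouse 3 and 16.8 in PBS mouse 3. Neighbours in this ranking were joined into 3 library pairs, which the sample labels do not give. In each pair the ASO mouse had the lower ratio, and whether the ratio follows treatment was not tested. Values within these pairs are given beside the pooled ones.

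Promoters of respiratory chain genes are known for binding sites of NRF1, a regulator of these genes, and of ETS family factors such as GABP. Promoters of 73 of the 92 members were found in RefSeq (GRCm38.p6, the build of the files), and the 250 bases before each listed transcript start were searched on both strands. In 18 of 73 the window lay inside the gene's own RefSeq span, so that another transcript starts further out. The NRF1 core CGCATGCG was present in 8 of 73 members (11.0%), against 1.75% of 27025 genes. The ETS motif CCGGAAG was present in 14 of 73 (19.2%), against 7.83%. The YY1 motif AAGATGGC was present in 1 of 73 (1.37%), against 1.83%, and the hypoxia response core ACGTG in 15 of 73 (20.5%), against 18.5%. The windows of 4 complex IV genes are printed 5′ to 3′ because these genes differ in class pattern: the common subunit gene Cox7a2 was called lower in microglia than in the other tested classes (log2 difference -0.57) and its relative Cox7a2l higher. Cox6a1 and Cox6b1, also common subunits, stood at -0.16 and -0.03 there and were called lower with total-UMI scaling only, at -0.57 and -0.44. Capitals mark NRF1, ETS and YY1 letters, so CTTCCGG is the ETS motif on the opposite strand.
Cox6a1 (chr5:115348959-115349208, minus strand): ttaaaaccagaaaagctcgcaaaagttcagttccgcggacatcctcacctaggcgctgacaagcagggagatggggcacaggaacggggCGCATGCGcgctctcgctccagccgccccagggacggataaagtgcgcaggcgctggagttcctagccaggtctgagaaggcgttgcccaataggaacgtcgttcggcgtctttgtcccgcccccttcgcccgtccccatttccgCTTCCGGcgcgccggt
Cox6b1 (chr7:30626115-30626364, minus strand): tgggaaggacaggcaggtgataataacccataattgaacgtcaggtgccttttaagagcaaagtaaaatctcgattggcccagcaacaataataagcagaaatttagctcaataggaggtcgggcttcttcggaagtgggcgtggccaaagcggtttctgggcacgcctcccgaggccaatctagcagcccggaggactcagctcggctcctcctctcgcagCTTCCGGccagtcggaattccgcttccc
Cox7a2 (chr9:79759854-79760103, minus strand): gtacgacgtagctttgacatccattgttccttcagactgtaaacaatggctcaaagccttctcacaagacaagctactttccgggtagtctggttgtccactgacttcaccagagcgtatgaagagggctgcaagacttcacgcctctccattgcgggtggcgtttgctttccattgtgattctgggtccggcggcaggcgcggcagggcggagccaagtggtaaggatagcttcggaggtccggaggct
Cox7a2l (chr17:83514334-83514583, minus strand): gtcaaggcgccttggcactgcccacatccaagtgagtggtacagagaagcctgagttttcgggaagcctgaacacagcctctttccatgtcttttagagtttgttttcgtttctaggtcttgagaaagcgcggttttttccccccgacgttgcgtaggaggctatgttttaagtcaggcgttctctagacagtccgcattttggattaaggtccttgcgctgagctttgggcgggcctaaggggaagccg
Cox6a1 held both an NRF1 and an ETS match and Cox6b1 an ETS match. The windows of Cox7a2 and Cox7a2l held none of these letters. The Cox7a2 window lies inside the gene's RefSeq span and the Cox7a2l window inside its GENCODE M21 span, so both stand before 1 of several starts.

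Together the members took 1.59 ± 0.147% of UMIs over all cells (SD, n = 6 mice). Complex I subunits made up 31.7% of the members' UMIs, complex IV 28.9%, complex V 24.0%, complex III 10.1%, complex II 3.04% and the assembly factors 2.21%. Counts come from 3' ends and were not divided by gene length, so levels are compared between classes and not between genes. The genes with the highest counts in each complex set the scale. Cox4i1, the common form of subunit 4 of complex IV, averaged 750 ± 92.2 CPM over the 6 mice, Cox6c 604 ± 58.3 and Cox6a1 511 ± 55.2. Atp5b and Atp5a1, the catalytic beta and the alpha subunit of ATP synthase, averaged 403 ± 30.2 and 334 ± 26.2 CPM, and Atp5j, coupling factor 6 of its stalk, 376 ± 59.7. The small complex III subunits Uqcrq, Uqcr10 and Uqcr11 averaged 266 ± 27.1, 242 ± 21.9 and 240 ± 26.9 CPM. Ndufb10, Ndufa6 and Ndufa13, accessory subunits of complex I, lay between 241 and 244 CPM. Of complex II, the iron-sulfur subunit Sdhb averaged 159 ± 25.2, the flavoprotein Sdha 150 ± 12.8 and the membrane anchor Sdhc 106 ± 6.49 CPM. Cox8c was listed at 0 in every mouse.

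The first comparison asks which hippocampal classes carry more of this RNA. Astrocytes (2.18 ± 0.152% of UMIs) and mural cells, the pericytes and smooth muscle cells of vessels (2.16 ± 0.201%), had the highest shares of the 10 tested classes. Cajal-Retzius neurons (1.95 ± 0.255%), subiculum neurons (1.87 ± 0.332%) and dentate neurons (1.70 ± 0.277%) followed. Polydendrocytes, the oligodendrocyte precursors, had 1.56 ± 0.176%, oligodendrocytes 1.504 ± 0.129% and endothelial cells 1.49 ± 0.106%. CA1 neurons (1.10 ± 0.172%) and the microglia and macrophage class (0.987 ± 0.0970%) had the lowest shares (all SD, n = 6 mice). Neighbours in this order overlapped: astrocytes exceeded mural cells in 4 of 6 mice, and CA1 neurons exceeded microglia in 4 of 6. Every mouse's value in astrocytes and in mural cells lay above every value in polydendrocytes, oligodendrocytes, endothelial cells, CA1 neurons and microglia. Every value in microglia and in CA1 neurons lay below every value in the other 8 tested classes. Among classes too small to test, 39 choroid plexus cells had a pooled share of 2.41% and 47 CA2 and CA3 neurons 0.901%.

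**Figure D1:**
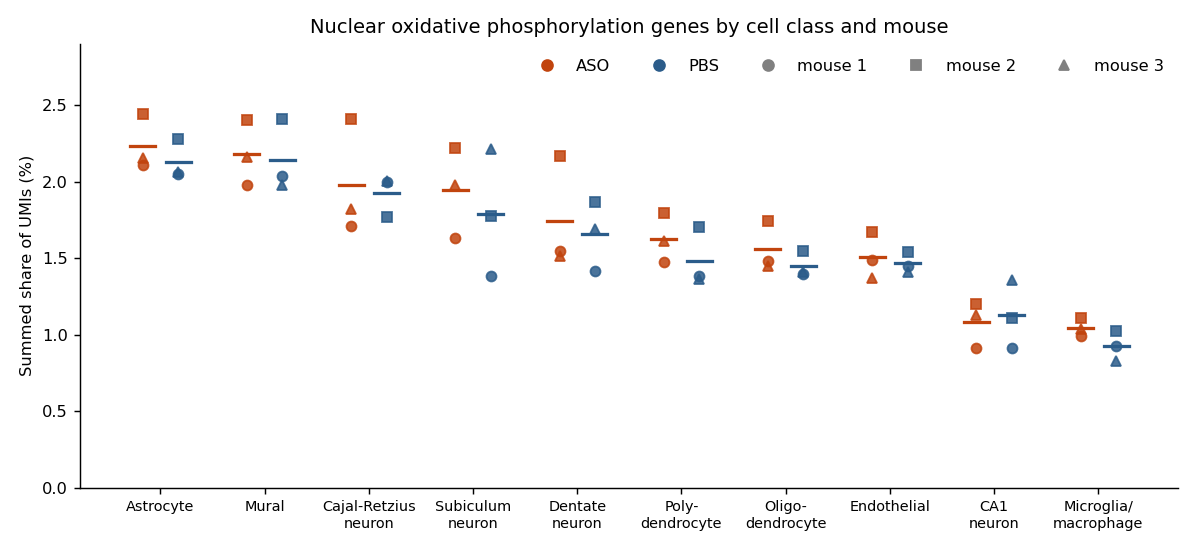
Summed share of UMIs taken by the 92 nuclear oxidative phosphorylation genes, in percent, in each of the 10 tested classes, 1 symbol per mouse and a line at the mean of 3. Astrocytes and mural cells lie near 2.2% and CA1 neurons and microglia near 1.0 to 1.1%, and the ASO and PBS mice overlap within every class.

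Shares of a total depend on everything else in that total, so single genes were tested with edgeR's quasi-likelihood test, each class against the mean of the other tested classes with the mouse as a term, under TMM scaling and again under plain total-UMI scaling. A gene counts as called where its Benjamini-Hochberg adjusted p is under 0.05, and 80 of the 92 members passed the filter on low counts, among 8871 genes. In astrocytes 73 of 80 members were called higher and 0 lower, against 31.1% and 20.8% of all genes, with a median log2 difference of 0.82 for members and 0.03 for all genes. With total-UMI scaling 66 were higher and 2 lower, against 22.8% and 36.4% of all genes, with medians of 0.50 and -0.29, and the same 66 were higher under both. The widest differences (log2) were in the complex I subunit Ndufa12 (1.57, SE 0.106, adjusted p 1.77e-31) and in complex III, where Uqcrfs1, the Rieske iron-sulfur protein, stood at 1.55 (SE 0.106), Uqcr11 at 1.44 and Uqcr10 at 1.31. All 4 complex II genes and all 8 complex III genes were called higher, as were 33 of 34 in complex I, 11 of 13 tested in complex IV and 14 of 15 in complex V. Of 6 assembly factors tested, 3 were called. Cox7a2l, the relative of Cox7a2, went the other way under total-UMI scaling (-0.48), together with the assembly factor Ndufaf7 (-0.43). Neither was called under TMM.

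Other genes of the pathway were higher in astrocytes too. Ndufc2 (1.96, SE 0.0826), Ndufc1 (1.18), Cyc1 (0.83) and Cycs (0.67) were called, and so was Ppargc1a, a coactivator known to drive mitochondrial biogenesis (2.72, SE 0.155, adjusted p 2.86e-39). Of 16 tested genes of the tricarboxylic acid cycle 12 were called higher and 0 lower, and of 16 glycolysis genes 13 higher and 1 lower. Cytosolic ribosomal protein genes, set beside these because they take a large part of the total, had 3 called higher and 37 lower of 84. Immediate early and dissociation stress genes had 20 of 22 called lower. The part of these lists in the members' shares was not tested.

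Mural cells had 44 of 80 members called higher and 1 lower, against 22.3% and 15.4% of all genes, with a median log2 difference of 0.45. With total-UMI scaling 39 were higher and 1 lower, against 21.2% and 17.2% of all genes. Both counts of higher members include Cox4i2, a gene with few counts outside vessels. It passed the filter on low counts through the vascular classes, so its call is not read as support. Complex V had 13 of 15 called higher, complex IV 10 of 13 (with Cox4i2) and complex I 13 of 34. Sdhc, a membrane anchor of complex II (1.52, SE 0.185), Ndufa13 (1.19) and Cox8a, the common form of subunit 8 of complex IV (1.02), were among them. The called member that was lower was Ndufaf5, an assembly factor of complex I, which had 2 UMIs in mural cells of 253 in all, and the count of lower members was 0 without ASO mouse 2, ASO mouse 3, PBS mouse 1 or PBS mouse 3, each left out alone. Ribosomal protein genes were also higher in mural cells (74 of 84 called).

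Microglia, in a class that the authors joined with macrophages, had 51 of 80 members called lower and 5 higher, against 29.4% and 32.1% of all genes, with a median log2 difference of -0.49. With total-UMI scaling 73 were lower and 2 higher, against 46.1% and 23.7% of all genes, with medians of -0.90 and -0.46, and all 51 stayed among the lower ones. Without ASO mouse 1 or ASO mouse 3, 3 members were called higher. The lowest were the complex I subunits Ndufv1, which binds NADH (-1.20, SE 0.184), Ndufb6 (-1.18), Ndufa5 (-1.06) and Ndufv2 (-1.01), and Cox5a of complex IV (-1.04). Ndufb10 is 1 example, set against astrocytes, the tested class with the highest summed share. It had 94.0, 96.9 and 132 CPM in microglia of ASO mice and 101, 138 and 105 CPM in those of PBS mice. In astrocytes it had 366, 408 and 391 CPM in ASO mice and 352.1, 378 and 355 CPM in PBS mice. No microglial value reached an astrocyte value. The lowest mean of Ndufb10 among the tested classes was in CA1 neurons (98.9 CPM). The summed shares of microglia and astrocytes were 0.987% and 2.18%. Cyc1 (-0.66), Cycs (-0.77) and Ppargc1a (-1.72) were called lower as well. In the same class 81 of 84 ribosomal protein genes were called higher (median 1.72) and 21 of 22 immediate early and stress genes (median 2.69). Whether these abundant RNAs set the members' low share was not tested.

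A few members ran against this in microglia. Cox7a2l was 1.45 higher on the log2 scale (SE 0.0999, adjusted p 8.54e-31), and Ndufa1, a complex I subunit encoded on the X chromosome, was 0.75 higher (SE 0.120). Both stayed called with total-UMI scaling, at 1.05 and 0.35. Atp5g2, which encodes the c ring protein of ATP synthase (0.73), and Uqcrh, the hinge protein of complex III (0.26), were called under TMM only, and Cox4i1 turned from 0.22 to -0.19 with total-UMI scaling. Cox7a2l lay at chr17:83501918-83517330 on the minus strand in GENCODE M21. It had 316, 402 and 357 CPM in microglia of ASO mice and 340, 359 and 226 CPM in those of PBS mice. Among the tested classes Cajal-Retzius neurons came next at 300 ± 94.7 CPM (SD, n = 6), overlapping microglia, and polydendrocytes were lowest at 109 ± 12. In classes too small to test, 40 cells of the neurogenesis class had a pooled 382 CPM and the CA2 and CA3 neurons 64.0. Among the 10 tested classes and the 79 members with at least 300 UMIs, Cox7a2l was the 1 member at its highest in microglia, while 49 were at their lowest there and 20 in CA1 neurons. Its near relative Cox7a2, by contrast, had 183 pooled CPM in microglia and 395 in astrocytes.

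**Figure D2:**
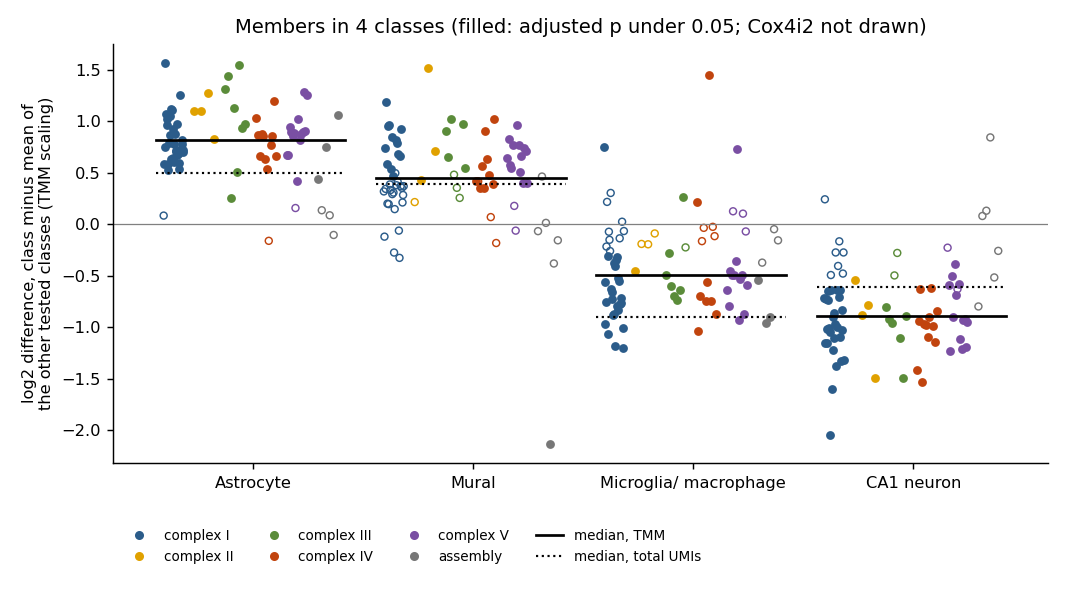
log2 difference of each tested member in 4 classes against the mean of the other tested classes (TMM scaling), by complex, with filled points at adjusted p under 0.05 and medians under TMM (solid) and total-UMI scaling (dotted). Members lie mostly above 0 in astrocytes and mural cells and mostly below 0 in microglia and CA1 neurons, with Cox7a2l at 1.45 in microglia and Ndufaf5 (2 UMIs in mural cells) as the far points on the other side; Cox4i2 is not drawn.

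CA1 neurons joined low nuclear members to high mitochondrially encoded RNA. Of 80 members, 62 were called lower and 0 higher, against 22.2% and 20.1% of all genes, with a median of -0.89. With total-UMI scaling 42 were lower and 1 higher, against 13.7% and 25.3% of all genes, with medians of -0.61 and 0.01, and all 42 were lower under both. Ndufa7 (-2.04, SE 0.256), Ndufb10 (-1.60), Cox6a1 (-1.53) and Cox4i1 (-1.41) were among the lowest. Cox4i1 had 352.1, 387 and 224 CPM in CA1 neurons of ASO mice and 244, 419 and 401 CPM in those of PBS mice, which overlap, and every one of these lay below the astrocyte values of 901 to 1347 CPM. Of the 9 mitochondrially encoded subunits tested, 8 were called higher in CA1 neurons and 0 lower, led by mt-Nd1 (0.99, SE 0.0834) and mt-Nd6 (0.93), and all 9 were called higher with total-UMI scaling. These 9 took 2.63 ± 0.605% of UMIs in CA1 neurons, the highest of the 10 tested classes, against 1.62% in astrocytes, 1.92% in mural cells, 1.01% in microglia and 0.975% in polydendrocytes. The ratio of mitochondrially encoded to nuclear members over pooled cells was 2.53 in CA1 neurons, and 4.22 in the 47 CA2 and CA3 neurons. Over the 10 classes, which share libraries, the Pearson correlation of both shares was 0.0248, given as a description. Ribosomal protein genes were called lower in CA1 neurons in 81 of 84 cases and stress genes in 18 of 22. The mitochondrially encoded sum is partial, since mt-Co2, mt-Co3, mt-Atp6 and mt-Atp8 had 5, 10, 2 and 0 UMIs in the table, while mt-Cytb had 51495. The deposited cells also had at most 14.99% mitochondrial UMIs.

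**Figure D3:**
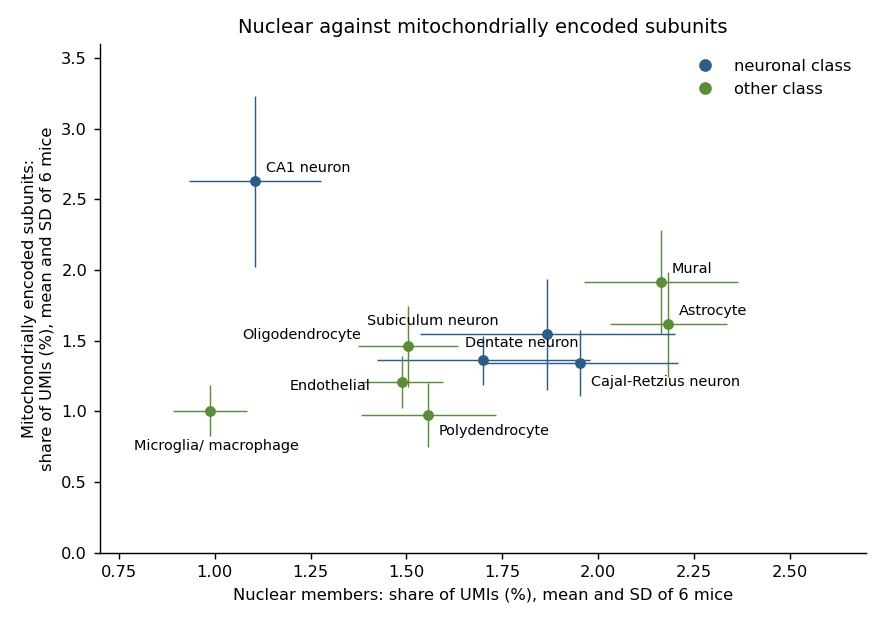
Share of UMIs of the nuclear members (x axis, percent) against that of the mitochondrially encoded subunits (y axis, percent), as mean and SD of 6 mice for each of the 10 tested classes. CA1 neurons stand alone at 1.10% and 2.63%, whereas microglia are low on both axes and mural cells and astrocytes are high on the x axis.

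Taken as groups, 4 neuronal against 6 non-neuronal classes gave no direction that held. Under TMM, 5 members were called higher and 46 lower in neurons, against 24.6% and 41.7% of all genes, with medians of -0.35 for members and -0.28 for all genes. Without ASO mouse 2, 3 were called higher, and without PBS mouse 3, 2. With total-UMI scaling, 24 were higher and 18 lower, against 36.4% and 26.2%, with medians of 0.04 and 0.10. The median of all genes moved with the scaling as the members' did. By single gene, 18 members were called lower and 5 higher under both scalings. No share of all genes called under both was computed, so these counts are not read as a result about the members. One of the 18 lower, Cox4i2, had 5 UMIs in the 4 neuronal classes against 52 in mural cells. It passed the filter through the vascular classes and is given as counts only. Its call, also among the 46 under TMM, is not read as support. Lower in neurons were Sdhc (-1.19, SE 0.140), Atp5g2 (-1.18), Ndufa7 (-1.16), Cox6a1 (-0.83), Uqcr11 (-0.80), Uqcrh (-0.76), and the complex I subunits Ndufs8 (-0.76), Ndufa13 (-0.74) and Ndufb11 (-0.74). Higher in neurons were Ndufa10 (0.42), the assembly factor Ndufaf4 (0.38), Ndufs3 (0.28) and Ndufa4 (0.23, SE 0.0721). Of these, Ndufaf4, Ndufs3 and Ndufa4 were no longer called with no filter on low counts (adjusted p 0.237, 0.369 and 0.182 in edgeR). Ndufs3 was also not called without ASO mouse 2, ASO mouse 3 or PBS mouse 3, Ndufaf4 without ASO mouse 2, PBS mouse 1 or PBS mouse 2, and Ndufa4 without PBS mouse 3. Ndufaf5 was not tested without PBS mouse 3 and had 2 UMIs in mural cells. Ndufa4 had 865 ± 171 CPM in subiculum neurons, 768 ± 147 in Cajal-Retzius neurons and 664 ± 107 in dentate neurons, but 348 ± 145 in CA1 neurons, so the neuronal mean joins unlike classes. For comparison, astrocytes had 598 ± 68.1 and microglia 217 ± 36.8 CPM (SD, n = 6).

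Restricted counts were seen for Cox6a2 in microglia and for Cox4i2 and Ndufa4l2 in vascular classes. Cox6a2, the muscle form of subunit 6a, had 109 of its 114 UMIs (95.6%) in microglia. It had 73.1, 96.9 and 49.2 CPM in microglia of ASO mice and 37.1, 56.0 and 26.9 CPM in those of PBS mice, and 0 in every endothelial and mural sample. Microglial cells in which a macrophage marker was counted had 64.3 CPM and those without 54.3 CPM. Cox6a1, the common form, had 321.4 ± 52.1 CPM in the same class. Cox6a2 lies at chr7:128205435-128206387 on the minus strand, inside the span of Itgad on the plus strand (chr7:128154376-128223816, GENCODE M21; 70 shared bases in RefSeq). Whether strand was used in counting is not given in the sources used here, so reads of both genes cannot be told apart by annotation alone. Itgad itself, an integrin gene, had 16 UMIs in microglia and 105 of its 168 UMIs in oligodendrocytes.

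Cox4i2 and Ndufa4l2, a pair known as targets of hypoxia signalling, were vascular. Cox4i2 had 88.6, 119 and 121 CPM in mural cells of ASO mice and 121, 174 and 86.6 CPM in those of PBS mice, which overlap, and endothelial cells had a pooled 29.4 CPM. No fold is given, because it passed the filter through the classes where it is high: astrocytes had 10 UMIs, microglia 8, oligodendrocytes 6, polydendrocytes, dentate and subiculum neurons 2 each, CA1 neurons 1 and Cajal-Retzius neurons 0. Ndufa4l2 had 42 UMIs, 14 in mural cells (30.0 CPM) and 28 in endothelial cells (13.9 CPM), and 0 in every other class; with so few it passed no filter and got no test. Within the endothelial class, 57 of 59 Cox4i2 UMIs and 28 of 28 Ndufa4l2 UMIs lay in the 1158 cells (64.0%) that held a UMI of a mural marker. Cox4i2 stood at 42.02 CPM in those cells and at 3.07 CPM in the other 651. Within the mural class, 27 of 52 Cox4i2 UMIs lay in the 140 cells (30.4%) that held a UMI of an endothelial marker, at 187 CPM, against 77.5 CPM in the other 320. Cox4i2 lies at chr2:152754173-152765037 (plus strand) and shares 6308 bases with Bcl2l1 and 3891 with the noncoding Gm32057 in RefSeq. Ndufa4l2 lies at chr10:127514967-127517154 (plus strand) and shares 32 bases with Shmt2. Of 7 tested genes of a hypoxia list, 2 were called higher and 1 lower in mural cells.

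The other tissue forms were scarce. Cox6b2, the testis form, and Cox8b, a muscle form, had 11 UMIs each in the 39 choroid plexus cells. That is 188 CPM there, against 14.7 and 3.56 CPM in all cells. Neither was restricted to these cells: Cox6b2 had 67 of 211 UMIs in astrocytes and 52 in oligodendrocytes, and Cox8b 14 of 51 in astrocytes. Cox7a1 had 66 UMIs and Cox7b2 85 in the whole table, with no class above 34.1 CPM. The common forms Cox8a, Cox6b1 and Cox7b stood at 373, 339 and 261 CPM in all cells.

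**Figure D4:**
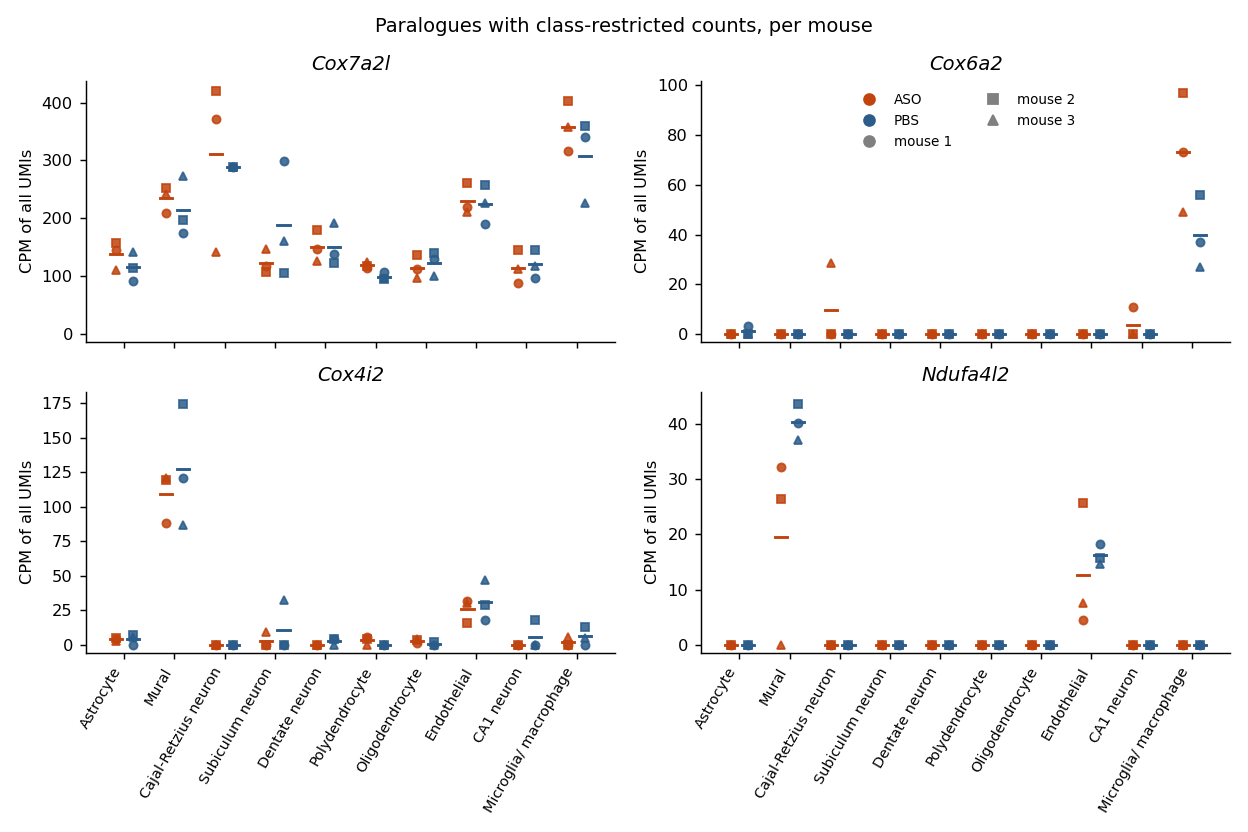
CPM of all UMIs for 4 paralogues in the 10 tested classes, 1 symbol per mouse and a line at the mean of 3, with ASO left of PBS. Cox6a2 is near 0 outside microglia, Cox4i2 and Ndufa4l2 are highest in mural cells and next in endothelial cells, and Cox7a2l is detected everywhere and highest in microglia and Cajal-Retzius neurons.

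The second comparison asks whether the ASO changed these genes within a class. No member passed in any class or in all cells together. With edgeR, DESeq2 and limma voom, 0 of the tested members had an adjusted p under 0.05 in each of the 11 fits, against 0.00714% of all genes called in all cells, 0.0365% in microglia, 0.257% in mural cells, 0.238% in oligodendrocytes, 0.188% in subiculum neurons, 0.0447% in polydendrocytes and 0% in the other 5 classes. From 17 members (CA1 neurons) to 81 (astrocytes) of 92 had passed the filter on low counts. At an unadjusted edgeR p under 0.05, 25 of 628 pairs of a member and a class passed (3.98%). Over all genes 4.77% of pairs passed. Of the 25, 20 were higher and 5 lower in ASO mice. By class, 1.5% to 3.85% of all genes passed as higher and 1.74% to 4.17% as lower. The median log2 fold change (ASO over PBS) ran from -0.11 in CA1 neurons to 0.20 in microglia, and from -0.01 to 0.01 for all genes. It was above that of all genes in 9 of 10 classes, but its sign turned in 8 of 10 under at least 1 of 15 alternatives, 6 of them without ASO mouse 2 and 3 without PBS mouse 1. Microglia and polydendrocytes were the classes where it did not. The classes come from the same 6 mice and are not independent of each other. Over all cells the members took 1.51, 1.86 and 1.55% of UMIs in ASO mice and 1.47, 1.67 and 1.502% in PBS mice, which overlap. Mouse 2 was the highest of both groups, and an all-cell sum also follows the mix of classes. The ASO mouse was above the PBS mouse in 3 of 3 library pairs for all cells, astrocytes, microglia, oligodendrocytes and polydendrocytes. In the other classes it was above in 1 or 2 of 3. These pairs were joined by rank and are not given by the labels.

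Microglia had the highest median. There 56 of 72 tested members (77.8%) had a fold change above 0, against 48.7% of all genes. Complex V had 15 of 15 and complex IV 12 of 12 tested members above 0, complex III 7 of 8, complex II 3 of 4 and complex I 19 of 32. At an unadjusted p under 0.05, 6 members were higher and 0 lower, against 2.76% of all genes each way. In 9 members every ASO mouse lay above every PBS mouse and in 0 below, against 4.93% and 6.01%. The summed share was 0.991, 1.11 and 1.04% in ASO mice and 0.929, 1.02 and 0.829% in PBS mice, which overlap. Within library pairs the log2 ratio of ASO to PBS was 0.11, 0.09 and 0.33. Without PBS mouse 3 the median fold change of the members was 0.08. The lean above 0 was not particular to microglia. In all cells 71 of 90 members (78.9%) were above 0, against 50.5% of all genes. In polydendrocytes 56 of 75 (74.7%) were, against 50.9%. The other tested classes ran from 35.3% in CA1 neurons to 69.1% in astrocytes. Complex V had 14 of 15 above 0 in all cells and 13 of 15 in polydendrocytes, and complex IV 14 of 18 and 10 of 11.

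Atp5e, the epsilon subunit of ATP synthase (chr2:174461075-174464101), had the lowest p of the members in microglia. It had 280, 281 and 243 CPM in ASO mice and 209, 188 and 140 CPM in PBS mice, with no overlap, at a log2 fold change of 0.61 (SE 0.191, adjusted p 0.530). Ndufa2, a complex I accessory subunit, had 190, 228 and 225 CPM in ASO mice and 158, 161 and 126 CPM in PBS mice, at 0.54 (SE 0.199). Ndufb8, also of complex I, had 85.7, 121 and 98.5 CPM in ASO mice and 60.6, 65.8 and 64.5 CPM in PBS mice, at 0.64 (SE 0.252). In these 3 genes the groups did not overlap. Cox6a2 was at 0.86 (SE 0.325), with overlap between PBS mouse 2 and ASO mouse 3. None of these passed (adjusted p from 0.530 to 0.784).

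Other lists had these values in microglia, with 0 genes called by edgeR in any of them. At an unadjusted edgeR p under 0.05, 4 stress genes and 1 microglia marker were lower, and 0 cytosolic ribosomal protein genes passed. Higher were 2 oligodendrocyte markers, 2 neuron markers, 1 macrophage marker, 2 mitochondrial ribosome genes and 1 gene of adenine nucleotide carriers and uncoupling. Neuron markers had 3 of 4 tested above 0 and microglia markers 3 of 6. Of 84 ribosomal protein genes 74 were above 0 (summed 61405 to 70478 CPM in ASO mice and 54889 to 68789 in PBS mice). Of 22 immediate early and stress genes 19 were below 0 (16080 to 19014 CPM in ASO mice and 17331 to 22188 in PBS mice). Mitochondrially encoded subunits had 8 of 9 above 0. Macrophage markers had 5 of 5 tested above 0 (293 to 572 CPM in ASO mice and 132 to 619 in PBS mice), and oligodendrocyte markers 3 of 4 (1362 to 1456 CPM in ASO mice and 923 to 1251 in PBS mice). Choroid plexus markers ran from 2346 to 7231 CPM in ASO mice and from 61.9 to 5273 in PBS mice. The part of these in the members' values was not tested. The tricarboxylic acid cycle (6 of 12 above 0), glycolysis (6 of 11) and the mitochondrial ribosome (16 of 31) were nearly even.

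The ASO effect in microglia minus the mean effect in the other classes was itself tested in edgeR with the mouse as a term, over 7235 genes. It called 0 genes and 0 of 80 members, against 0% of all genes, and 5 members had an unadjusted p under 0.05, beside 4.48% of all genes. The median difference was 0.15 for members and -0.01 for all genes, and Atp5e stood at 0.62 (SE 0.207, adjusted p 0.989).

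**Figure D5:**
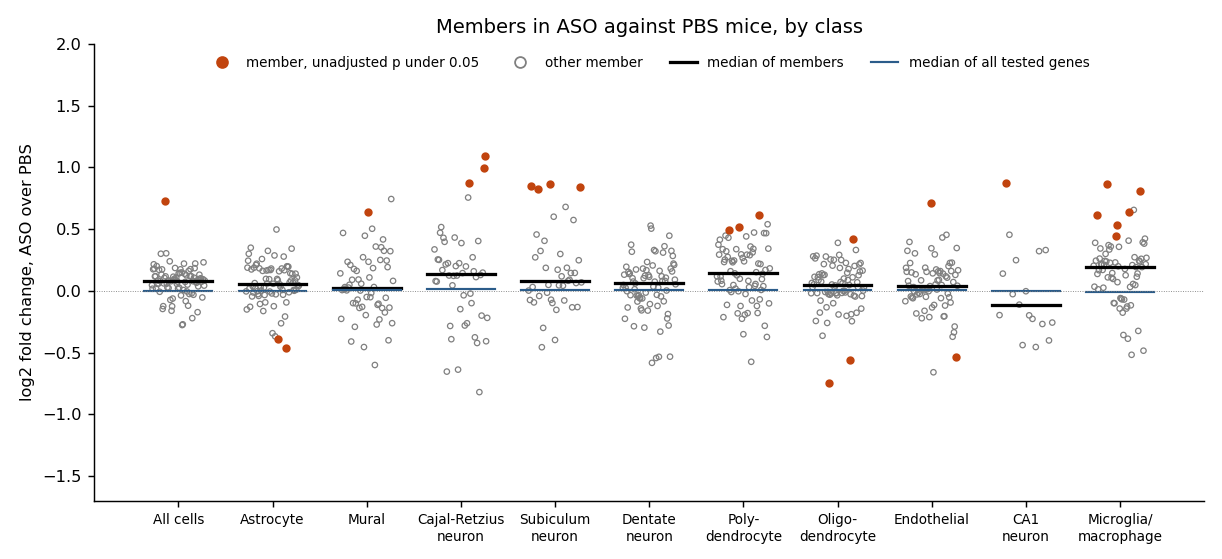
log2 fold change (ASO over PBS) of every tested member by class, 1 point per gene, with the median of the members in black and of all tested genes in blue. Medians of the members lie between -0.11 in CA1 neurons and 0.20 in microglia, and no point passes adjustment over all genes.

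In the other classes the lowest p-values were scattered. Ndufa1 was lower in oligodendrocytes of ASO mice, with 57.5, 58.4 and 49.2 CPM, against 91.3, 108 and 73.1 CPM in PBS mice, at -0.74 (SE 0.226, adjusted p 0.252). Ndufa8 was at 0.71 in endothelial cells (SE 0.225) and Uqcrc2, a core protein of complex III, at -0.53. Ndufs4, an iron-sulfur fragment subunit of complex I, was at -0.46 in astrocytes and -0.56 in oligodendrocytes, with no overlap in either class. In astrocytes 4 of 81 members had groups apart with ASO lower, against 3.98% of all genes. In oligodendrocytes 2 of 80 members did, against 4.57%. Groups apart with ASO higher were seen in 8 and 7 members of these classes, against 5.01% and 7.32% of all genes. In Cajal-Retzius neurons Uqcrb (0.99), Uqcrfs1 (1.10) and Ndufa7 (0.88) stood highest, and in subiculum neurons Cox6b1 (0.86), Atp5c1 (0.85), Uqcrh (0.84) and Atp5g3 (0.82), all with standard errors from 0.357 to 0.461. Polydendrocytes had Ndufs8 at 0.62, Ndufa3 at 0.52 and Cox6a1 at 0.49, mural cells Ndufa4 at 0.64, CA1 neurons Atp5f1 at 0.88 and dentate neurons Ndufb4 at -0.54. All of these missed the threshold. By count of classes the members were mixed. Atp5f1, a stalk subunit of ATP synthase, was above 0 in 10 of 10 tested classes and Atp5c1, its central gamma subunit, in 9 of 9. Of complex IV, Cox7c was above 0 in 3 of 10 and Cox5a in 0 of 4. These are extremes picked from all members, and no share over all genes was computed for such counts. The classes come from the same 6 mice.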

How the data were processed

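Drop-Seq UMIs of 3 ASO and 3 PBS mice were deposited by the authors as counts per gene and cell, not normalized, with mouse and class in each column name. The submitters' processing notes name bcl2fastq, STAR 2.5.0c, mm10 and GRCm38; sources used here do not give the counting program, its annotation, or how strand and near-identical copies were handled. The table held 12823 cells with 569 to 1999 UMIs, and 8 of 12811 barcodes occurred in more than 1 library. Scrublet (scanpy 1.11.5) marked 207 cells as doublets, which were left out.

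Counts were summed per mouse and class. In the 10 classes with at least 20 cells in every mouse, ASO was tested against PBS by edgeR 4.0.16 (R 4.3.3; filterByExpr, TMM scaling, quasi-likelihood F test, two-sided, Benjamini-Hochberg over all tested genes, threshold 0.05), and classes were compared in a model with class and mouse. CPM is relative to all UMIs of that mouse and class. Alternatives were DESeq2 1.42.0, limma voom 3.58.1, size factors, total-UMI scaling, no filter, doublets kept, mitochondrial genes left out, a 10% mitochondrial limit, a term for the 3 library pairs and each mouse left out. Contrasts of single classes were added after the data were seen. Scripts were tested on simulated data.

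Named genes were the 3 highest members of each complex, the complex IV paralogues, up to 10 members called each way between neuronal and other classes, and called members or the 4 lowest p-values per class for ASO against PBS. Genes named in single-class contrasts, and Atp5f1, Atp5c1, Cox7c and Cox5a across classes, were chosen after their values were seen. Members and lists were chosen with earlier results of these data known. Replicate numbers follow sample order. The number of mice limits the precision.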

Additional observations from a re-analysis of the deposited data

How the results depend on the processing

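Of 551 alternatives to counts, medians and shares, 532 stayed within 1.5 times the reported count, within 1 SD over mice of a share, or, for a median fold change, within the SD between mice of the members' median log2 CPM. All 165 counts of members called between ASO and PBS mice were 0, as were 7 of 7 for microglia minus the other classes. Total-UMI scaling moved class counts: neuronal against non-neuronal members called higher became 24 and lower 18, astrocyte lower 2, microglia higher 2 and CA1 higher 1, and Cox4i1 in microglia reversed to -0.19. With no filter on low counts 2 members were higher in neurons; with a 10% mitochondrial limit 8 were higher in neurons and 2 lower in mural cells. Without mitochondrial genes in the total, the astrocyte share was 2.35%. Leaving out each mouse in turn gave 2 to 5 members higher in neurons, 3 to 6 higher in microglia and 0 to 1 lower in mural cells. The median ASO fold change then ran from 0.0812 (without PBS mouse 3) to 0.239 in microglia and from -0.0361 (without ASO mouse 2) to 0.0968 in oligodendrocytes. Over all alternatives it ran from -0.01 to 0.16 in all cells, -0.25 to 0.04 in CA1 neurons, -0.14 to 0.15 in dentate neurons, -0.05 to 0.23 in Cajal-Retzius neurons, -0.01 to 0.30 in subiculum neurons, -0.00496 to 0.13 in astrocytes, -0.01 to 0.11 in endothelial cells, -0.01 to 0.13 in mural cells and 0.07 to 0.25 in polydendrocytes. The cause was not tested. Depth limits CA1, subiculum and Cajal-Retzius neurons most, where 17, 41 and 48 members could be tested.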
